A study of Mus musculus with 22 samples.

Results

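The genes described here are the subunits of the transcription factor NF-kB and the feedback inhibitors that hold it back, measured as mRNA in primary mouse microglia activated with lipopolysaccharide (LPS). They were chosen by function and symbol, as the rows of the expression table for Rela, Rel, Relb, Nfkb1, Nfkb2, Nfkbia, Nfkbie, Nfkbiz, Tnfaip3 and Bcl3. These are 10 of the 15725 gene symbols in the table. All 10 were present, and all 10 passed the filter on low values (at least 1 FPKM in at least 3 libraries) that 11070 genes passed. Their lowest value in any of the 22 libraries was 8.51 FPKM, in Rel, so no member entered through a single group.

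NF-kB proteins act as dimers. In unstimulated cells the inhibitors of the IkB family hold these dimers in the cytoplasm, and LPS, sensed through Tlr4 and Cd14, activates the IkB kinase, which marks the IkB proteins for degradation and frees the dimers to enter the nucleus. Among the genes that NF-kB then switches on are its own inhibitors and several of its own subunits, so the pathway limits and reshapes itself. In microglia, the resident macrophages of the brain, the pathway is best known for driving inflammatory cytokines and chemokines.

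The cells came from C57BL/6 pups of 1 to 3 days of age, as microglia shaken off mixed cortical glia, and every culture analysed here was given LPS at 100 ng/ml for 24 h, so none shows the pathway at rest. The groups were LPS alone (n = 3), LPS+Baf A1 (n = 5) with 10 nM bafilomycin A1, an inhibitor of the vacuolar proton pump that stops lysosomal acidification and the last step of autophagy, and LPS+CLA (n = 6) with 50 nM of an agent that the labels do not spell out. In LPS+siAtg5 (n = 5) the cells were first transfected for 48 h with 50 nM siRNA against Atg5, whose protein is needed to form autophagosomes, and LPS+dNC (n = 3) is the comparator that the design gives for it; the labels do not spell out dNC. Whether libraries of a group are separate cultures is not labelled, and the spread that p-values rest on may thus be technical. In bulk RNA, fewer cells of a type and less RNA per cell cannot be told apart.

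Values are FPKM, fragments scaled to gene length and library size, so levels of different genes can be set side by side. The sequencing depth behind a value is unknown. Atg5 was at 13.1 ± 0.365 FPKM in LPS+siAtg5 (SD, n = 5) against 22.3 ± 1.67 in LPS+dNC and 20.1 ± 0.292 in LPS (n = 3 each). Markers of microglia and macrophages were present in all groups, with summed levels of 6246 to 9598 FPKM, but LPS+dNC stood apart, with Cx3cr1 at 0.177 FPKM against 7.79 in LPS, Csf1r at 153 against 869, the ribosomal gene Rps6 at 9.16 against 368, and Lyz1 at 139.8 against 4.74. The neutrophil marker S100a8 was at 129 to 632 FPKM in LPS+dNC and at 4.02 to 33.6 in the other groups. Of the 6 lymphocyte and neutrophil markers looked for, 4 had no line in the table. The only marker left beside S100a8 had a mean under 1 FPKM in every group, LPS+dNC included, so S100a8 stands alone here. LPS+siAtg5 stood apart in another way: all 10 astrocyte markers were higher than in LPS+dNC and than in LPS, with a summed level of 336 to 393 FPKM against 5.63 to 20.7 in the other groups, and the median gene was at 4.53 to 4.80 FPKM against 2.62 to 3.25. Summed levels in LPS+siAtg5 were also above those of all other libraries for neuron markers (46.3 to 56.6 against 0.800 to 15.0 FPKM), oligodendrocyte lineage markers (33.4 to 36.5 against 4.6 to 18.04) and fibroblast, mural and endothelial markers (91.5 to 121.9 against 5.72 to 27.7). No defining marker of these types was at 0 throughout a group except Mog, in LPS+Baf A1 and LPS+CLA. Single libraries that lay apart from their group in earlier results of these data are LPS replicate 3, LPS+dNC replicate 1 and LPS+CLA replicate 2.

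Of the members, 5 hold the NF-kB consensus motif (searched by its usual degenerate form on both strands) in the 250 bases before a RefSeq start site, and stretches of them are shown. Among them are Tnfaip3, Nfkbie, Nfkb2 and Nfkbia, which differed most between group means. Rel is among them too, though its highest group mean was only 1.75 times its lowest, against 1.98 times for Bcl3, which has no match. RefSeq windows were found for 7 of the 10 members and not for Relb, Nfkb1 and Nfkbiz. Of all 32851 RefSeq windows of that length, 3.90% hold the motif, against 7 of the 10 windows of these members. These 7 include several windows of Nfkb2, some of which overlap, and the matches in its later windows are not shown. By gene, 4.46% of 27025 genes hold the motif in any window, against 5 of the 7 members with a window. The members were chosen by function, as genes of the NF-kB pathway, so these shares are no test. The sequences are from GRCm38.p6, written 5′ to 3′ in the direction of the gene, with the motif in capitals. The whole window, short of 1 base in Rel, is given for Nfkbia (chr12:55492648-55492897, minus strand), Nfkbie (chr17:45555450-45555699, plus strand) and Rel (chr11:23770971-23771219, minus strand). For Nfkb2 (chr19:46304689-46304718 and chr19:46304717-46304736, plus strand) and Tnfaip3 (chr10:19015515-19015544 and chr10:19015411-19015431, minus strand) only the motif and its flanks are given.
Nfkbia: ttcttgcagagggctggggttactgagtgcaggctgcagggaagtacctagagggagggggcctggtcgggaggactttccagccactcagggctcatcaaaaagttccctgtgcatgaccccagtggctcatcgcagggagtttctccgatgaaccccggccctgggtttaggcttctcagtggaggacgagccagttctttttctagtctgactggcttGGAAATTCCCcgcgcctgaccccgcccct
Nfkbie: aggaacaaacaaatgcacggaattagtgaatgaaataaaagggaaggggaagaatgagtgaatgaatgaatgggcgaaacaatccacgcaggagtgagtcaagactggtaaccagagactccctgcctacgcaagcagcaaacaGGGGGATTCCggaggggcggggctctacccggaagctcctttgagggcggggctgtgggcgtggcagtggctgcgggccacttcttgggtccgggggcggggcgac
Rel: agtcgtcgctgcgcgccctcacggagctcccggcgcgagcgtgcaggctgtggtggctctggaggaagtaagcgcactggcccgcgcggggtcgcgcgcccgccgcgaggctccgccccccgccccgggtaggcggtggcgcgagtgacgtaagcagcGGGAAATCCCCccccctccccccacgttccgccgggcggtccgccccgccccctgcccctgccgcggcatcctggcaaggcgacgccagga
Nfkb2, first: gatcgtcacGGGAATTCCCCccctcggggg
Nfkb2, second: gggccgaaaGGGGCTTTCCc
Tnfaip3, first: actcacgcgGGGACACCCCggggcgggacc
Tnfaip3, second: atttccatcGGAAATCCCCct

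The motif begins 29 bases before the start site in Nfkbia, 106 bases before it in Nfkbie and 92 bases before it in Rel, where further matches on the other strand begin at 92 and 91 bases and overlap the first. In Nfkb2 the matches shown begin 39 and 11 bases before the first RefSeq start site, the former again with overlapping matches on the other strand, and in Tnfaip3 125 and 12 bases before it. By GENCODE M21, however, these Nfkb2 and Tnfaip3 stretches lie inside the annotated genes, whose ends are given below, and 250 and 110 bases of their windows of 250 are annotated as exon of some gene on either strand. The windows of Rela and Bcl3 hold no match, which says only that these letters are not in those windows. A match describes the sequence only.

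On GRCm38 (GENCODE M21, matched by symbol, all protein-coding), Rela lies at chr19:5637483-5648130, Rel at chr11:23736847-23770970, Relb at chr7:19606217-19629438, Nfkb1 at chr3:135584655-135691547 and Nfkb2 at chr19:46304320-46312385. Among the inhibitors and cofactors, Nfkbia lies at chr12:55489410-55492647, Nfkbie at chr17:45555703-45563169, Nfkbiz at chr16:55811375-55838899, Tnfaip3 at chr10:19000910-19015657 and Bcl3 at chr7:19808462-19822770. Nfkb2 shares exon bases with Psd and AC114539.1, and Bcl3 with Gm16175, all on the opposite strand. Whether the counting used strand is not stated in the labels, so reads from these pairs cannot be told apart; Psd was at 0.390 to 2.25 FPKM over all 22 libraries.

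Across the 5 groups, the feedback inhibitors Tnfaip3 and Nfkbie varied most in mean level and the subunit Relb least. Nfkbia, which encodes IkB-alpha, the fast feedback inhibitor of the classical dimers, had the highest mean in every group, from 171 ± 3.94 (SD, n = 5) FPKM in LPS+siAtg5 to 432 ± 34.97 (SD, n = 3) in LPS+dNC. Rel, which encodes the subunit c-Rel, had the lowest mean in every group, from 9.07 ± 0.354 (SD, n = 5) FPKM in LPS+Baf A1 to 15.9 ± 1.62 (SD, n = 3) in LPS. Tnfaip3, which encodes a ubiquitin-editing enzyme that shuts signalling off upstream of the IkB kinase, spanned the widest range, its highest group mean being 5.23 times its lowest. Nfkbie, which encodes IkB-epsilon, spanned 3.92 times, Nfkb2 2.64 times and Nfkbia 2.53 times. The other 6 members spanned 1.52 to 1.98 times, the least being Relb.

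**Figure D1:**
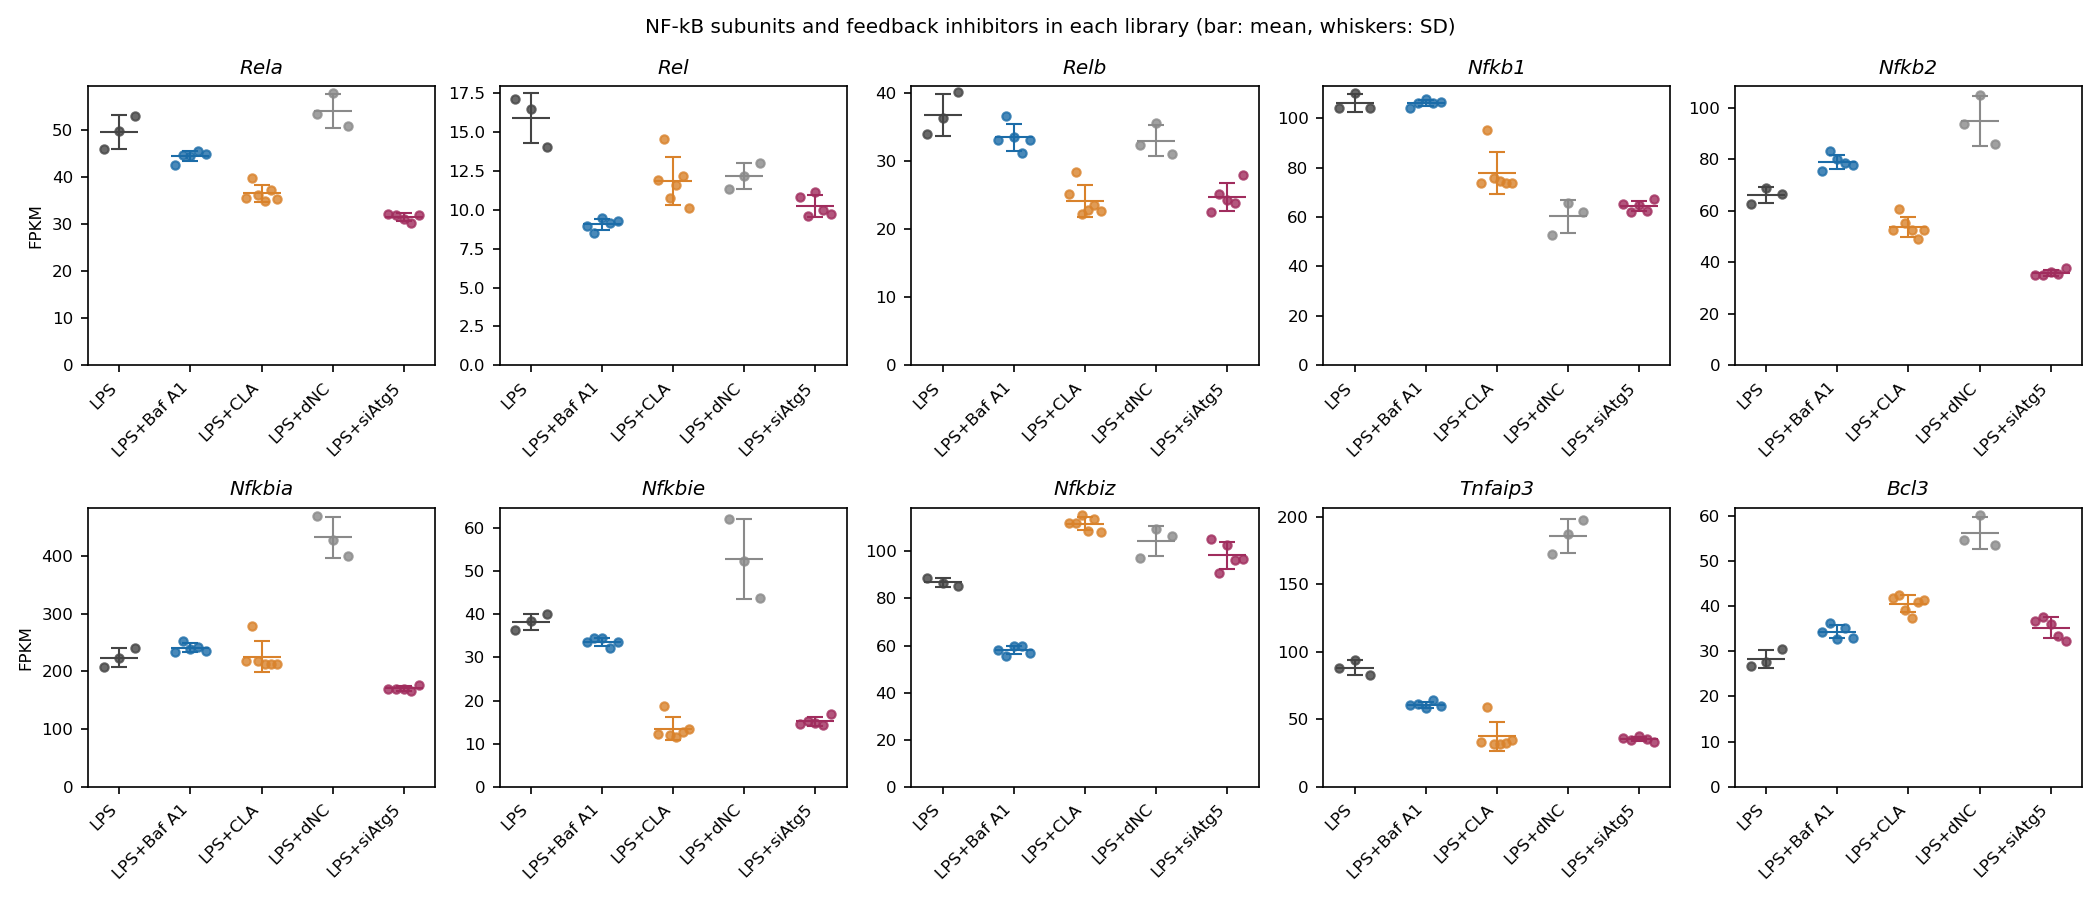
FPKM (vertical axes, linear from 0) of each of the 10 members in the 22 libraries by group; each point is 1 library, the horizontal bar is the group mean and the whiskers are the SD. Tnfaip3, Nfkbia, Nfkb2, Nfkbie and Bcl3 have their highest points in LPS+dNC, Nfkbiz is lowest in LPS+Baf A1, and 1 LPS+CLA library, replicate 2, lies above its group in several panels.

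LPS+Baf A1 against LPS asks what blocking lysosomal acidification did to LPS-activated microglia. In mean level Rel fell by 42.9%, Nfkbiz fell by 33.1%, Tnfaip3 fell by 30.9% and Rela fell by 10.2%, while Nfkb2 rose by 19.7% and Bcl3 by 21.1%. The other 4 members were not called, among them Nfkb1 and Nfkbia, the most abundant subunit and inhibitor in LPS. In all, 2 members rose and 4 fell at an adjusted p under 0.05 in limma, 6 of 10 being called against 57.8% of all genes tested (32.7% higher, 25.1% lower). The ranges of the groups did not overlap for 7 of 10 members, against 52.7% of all genes. The median log2 change of the members was -0.14, against 0.039 over all genes. Of all calls 56.6% were higher, and 67.2% with libraries scaled to markers of the myeloid lineage, where 3 members were higher and 3 lower. Markers of other cell types also separated these groups in summed level: fibroblast, mural and endothelial markers (16.8 to 22.2 FPKM against 11.1 to 16.03 in LPS, 4 of 7 called higher), astrocyte markers (17.9 to 20.7 against 9.25 to 14.9, 3 of 10 higher and 1 lower) and neuron markers (6.16 to 9.38 against 11.0 to 14.96, 2 of 5 tested lower). The summed rise of the astrocyte list was not shared by all its markers, and its median log2 change was -0.054. Mean levels with Baf A1 were lower than in LPS for Gfap (0.900 against 2.05 FPKM), Aqp4 (0.256 against 0.717) and Slc1a3 (1.05 against 1.62). The part of all these markers in these results was not tested. All changes here and below are differences of log2(FPKM + 1), and adjusted p-values are from limma after Benjamini-Hochberg correction across the 11070 genes.

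Among the subunits that carry a transactivation domain, Rel was at 17.1, 16.5 and 14.1 FPKM in the 3 LPS libraries and at 8.98, 8.51, 9.44, 9.13 and 9.27 in the 5 LPS+Baf A1 libraries. Every LPS+Baf A1 library lay below every LPS library, with a log2 change of -0.74 (SE 0.084, adjusted p = 1.08e-07). Rela, which encodes the main activating subunit, was at 45.9, 49.9 and 52.95 FPKM in LPS and at 42.6, 44.8, 44.6, 45.6 and 45.02 in LPS+Baf A1. These ranges did not overlap but lay side by side, and the change was -0.15 (SE 0.051, adjusted p = 0.0145). Without LPS replicate 3, the LPS library with the highest Rela, the change was -0.10 and was not called (adjusted p = 0.105). Relb, the activating partner in the non-canonical pathway, was at 33.97, 36.4 and 40.2 FPKM in LPS and 33.1, 36.7, 33.6, 31.2 and 33.2 in LPS+Baf A1, with overlapping ranges and a change of -0.13 (SE 0.077, adjusted p = 0.159).

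The subunits made as precursors went apart from each other. Nfkb1, whose protein is processed into the DNA-binding partner of Rela, was at 104, 110.2 and 104 FPKM in LPS and at 104, 106, 108, 106 and 106 in LPS+Baf A1. The ranges overlapped, and the change of 0.00 had a 95% interval of -0.14 to 0.15. Nfkb2, whose precursor holds Relb inactive until non-canonical signalling cuts it, was at 62.7, 68.9 and 66.4 FPKM in LPS. It was at 75.5, 83.1, 80.2, 78.4 and 77.8 in LPS+Baf A1, all above the LPS libraries, with a change of 0.26 (SE 0.061, adjusted p = 0.000945).

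Of the inhibitors and cofactors, Nfkbiz was the most clearly separated. It encodes IkB-zeta, a nuclear protein that many secondary LPS-response genes need, and it was at 88.8, 86.4 and 85.2 FPKM in LPS and 58.2, 55.7, 59.6, 59.8 and 56.8 in LPS+Baf A1. The gap between the groups was wider than either group's range, and the change was -0.57 (SE 0.047, adjusted p = 7.45e-10). Tnfaip3 was at 88.3, 93.7 and 82.6 FPKM in LPS and 60.6, 61.4, 58.3, 64.4 and 59.96 in LPS+Baf A1, again without overlap (log2 change -0.53, SE 0.13, adjusted p = 0.0016). Bcl3, which encodes a nuclear IkB protein that binds dimers of the processed subunits on DNA, was at 26.8, 27.7 and 30.5 FPKM in LPS and 34.3, 36.2, 32.8, 35.2 and 32.9 in LPS+Baf A1. All 5 LPS+Baf A1 libraries were above all 3 LPS libraries, and the rise was 0.27 (SE 0.058, adjusted p = 0.000412).

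The cytoplasmic IkB genes did not pass the test with Baf A1. Nfkbia was at 207, 223 and 241 FPKM in LPS and 234, 253, 239.6, 243 and 235 in LPS+Baf A1, with overlapping ranges (log2 change 0.11, SE 0.072, adjusted p = 0.216). Without LPS replicate 3, LPS+dNC replicate 1 and LPS+CLA replicate 2 it was called, at 0.16 (adjusted p = 0.000792). Nfkbie was at 36.3, 38.3 and 40.1 FPKM in LPS and 33.6, 34.6, 34.4, 32.3 and 33.5 in LPS+Baf A1; the ranges did not overlap, yet the change of -0.18 (SE 0.11, adjusted p = 0.169) was not called. The SD of Nfkbie was 2.75% of the mean in LPS+Baf A1 and 4.95% in LPS, but 17.5% in LPS+dNC and 19.5% in LPS+CLA, and the fit shares 1 estimate of the spread. Fitted on these 2 groups alone, with the same difference, Nfkbie had an adjusted p of 0.00904.

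**Figure D2:**
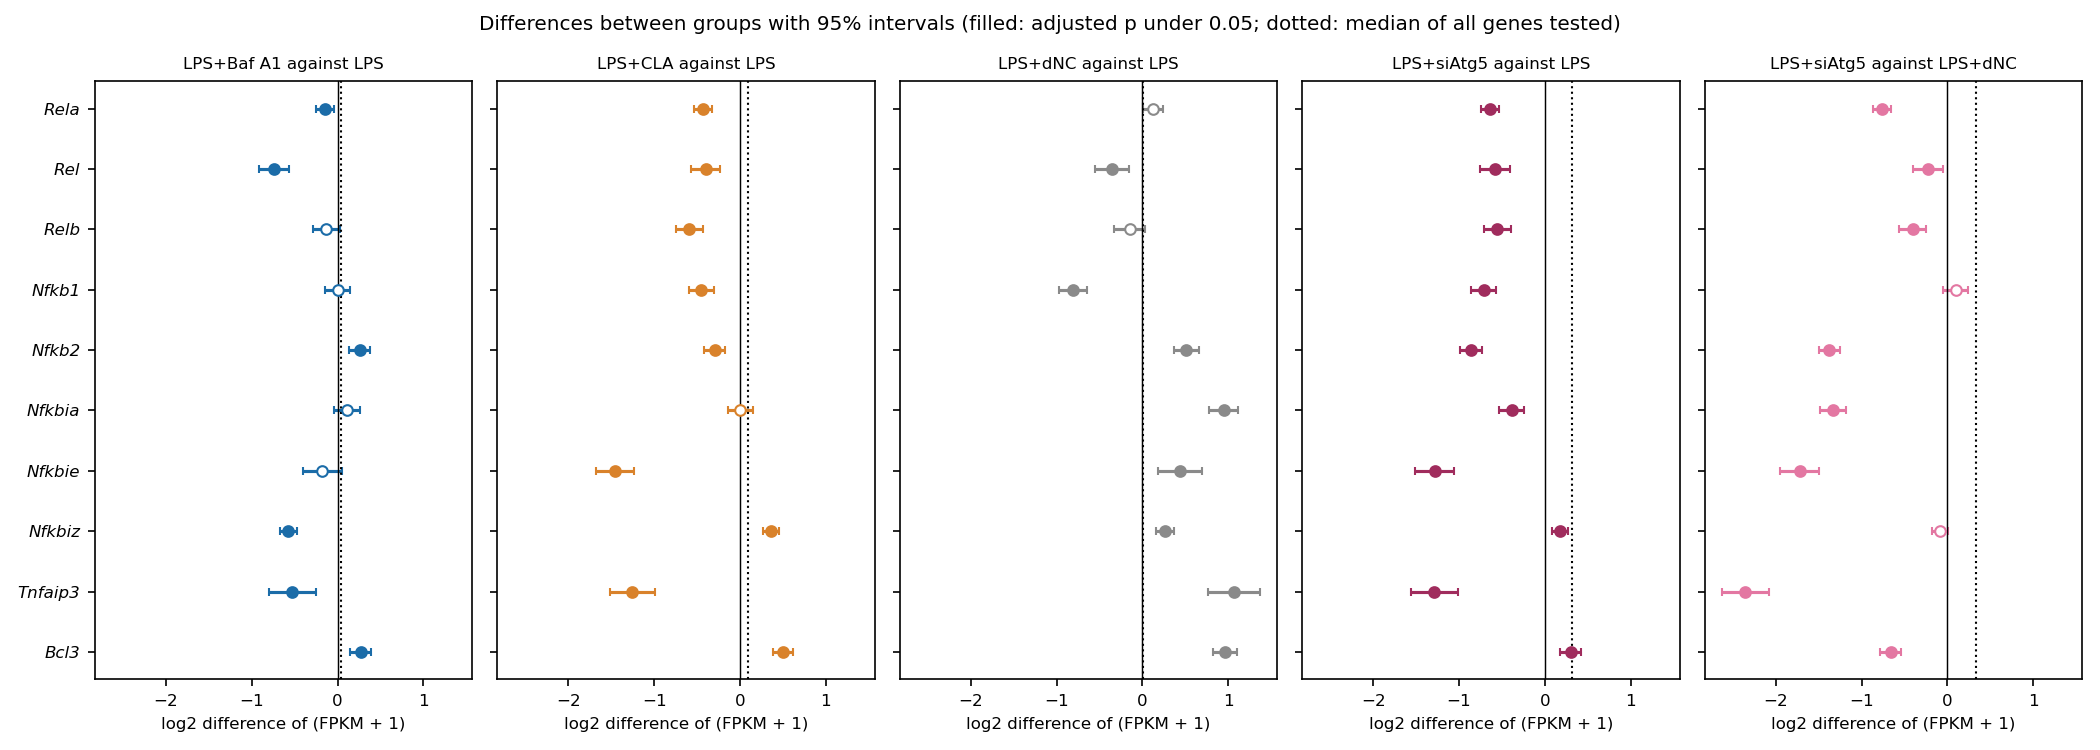
Log2 difference of FPKM + 1 (horizontal axis) for each member in 5 comparisons, with 95% intervals from limma; filled points passed an adjusted p under 0.05 and the dotted line is the median of all 11070 genes tested. Nfkbie and Tnfaip3 lie farthest below 0 with LPS+CLA and LPS+siAtg5, Nfkbiz lies below 0 with LPS+Baf A1 and above 0 with LPS+CLA, and the dotted line lies at 0.31 and 0.34 in the comparisons of LPS+siAtg5.

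LPS+CLA against LPS asks the same of the agent labelled CLA. In mean level Nfkbie fell by 64.9% and Tnfaip3 fell by 57.7%, the subunit genes Rela, Rel, Relb, Nfkb1 and Nfkb2 all fell by smaller amounts, and the nuclear cofactors Bcl3 and Nfkbiz rose. Nfkbia did not pass the test. In all, 2 members rose and 7 fell, so 9 of 10 were called against 63.1% of all genes (40.4% higher, 22.6% lower), and 8 of 10 did not overlap against 51.6% of all genes. The median change of the members was -0.41, against 0.090 over all genes. Of all calls in this comparison 64.1% were higher, and this share was 48.4% with median-of-ratios scaling and 54.0% with quantile normalization, while the members' split stayed at 2 higher and 7 lower under both. With median-of-ratios scaling the median of all genes was -0.018, Nfkb2 was at -0.44 and Nfkbiz at 0.21, both still called. Neuron markers were lower with CLA (5 of 5 tested, summed levels of 0.800 to 6.85 FPKM against 11.0 to 14.96 in LPS), and 4 of 7 fibroblast, mural and endothelial markers were higher (14.7 to 27.7 against 11.1 to 16.03); their part in these results was not tested.

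Relb changed most among the subunits with CLA. It ranged from 22.3 to 28.5 with a median of 23.2 FPKM in the 6 LPS+CLA libraries, all below the LPS libraries, and the change was -0.59 (SE 0.074, adjusted p = 3.8e-07). Rela ranged from 34.8 to 39.8 with a median of 35.96 FPKM in LPS+CLA, also without overlap, for a change of -0.43 (SE 0.049, adjusted p = 8.72e-08). Rel ranged from 10.1 to 14.6 with a median of 11.7 FPKM, and here the highest LPS+CLA library, replicate 2 at 14.6, lay above the lowest LPS library, replicate 3 at 14.1 (log2 change -0.40, SE 0.081, adjusted p = 0.00019). Without LPS+CLA replicate 2 the ranges of Rel did not overlap and the change was -0.45.

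Both precursor genes fell with CLA, Nfkb1 more than Nfkb2. Nfkb1 ranged from 73.6 to 95.1 with a median of 74.2 FPKM in LPS+CLA, with 5 of the 6 libraries between 73.6 and 75.9 and replicate 2 at 95.1. All 6 lay below the LPS libraries, and the change was -0.45 (SE 0.068, adjusted p = 4.67e-06). Nfkb2 ranged from 49.2 to 60.7 with a median of 52.6 FPKM, likewise below every LPS library, for a change of -0.29 (SE 0.059, adjusted p = 0.000159).

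The inhibitors parted with CLA. Nfkbie ranged from 11.6 to 18.7 with a median of 12.5 FPKM in LPS+CLA, far below the lowest LPS library at 36.3, and the change was -1.46 (SE 0.11, adjusted p = 5.19e-11). Tnfaip3 ranged from 31.5 to 59.4 with a median of 33.1 FPKM, with 5 of 6 libraries between 31.5 and 34.6, and lay below every LPS library (log2 change -1.26, SE 0.13, adjusted p = 1.5e-08). Nfkbia, the third of these feedback inhibitors, ranged from 212 to 279 with a median of 215 FPKM and overlapped LPS, with a change of 0.01 and a 95% interval of -0.14 to 0.15. Its sign turned with single libraries: the change was -0.06 without LPS+CLA replicate 2 (adjusted p = 0.303) and -0.05 without LPS replicate 1 (adjusted p = 0.624).

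The nuclear cofactors were higher with CLA. Nfkbiz ranged from 108 to 116 with a median of 112 FPKM in LPS+CLA, above every LPS library, and the rise was 0.36 (SE 0.045, adjusted p = 3.72e-07). Bcl3 ranged from 37.4 to 42.4 with a median of 41.2 FPKM, also above every LPS library, for a rise of 0.50 (SE 0.056, adjusted p = 6.14e-08) or 43.1% in mean level. Bcl3 thus rose with both agents, while Nfkbiz fell with Baf A1 and rose with CLA.

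Replicate 2 of LPS+CLA is a particular library for these genes. It was above the other 5 LPS+CLA libraries for 9 of the 10 members, Nfkbiz alone lying within them, whereas over all genes tested it was the highest of the 6 libraries for 16.4% and the lowest for 50.0%. Its level exceeded the mean of the other 5 by 80.7% for Tnfaip3, 50.4% for Nfkbie, 30.1% for Nfkbia, 28.8% for Rel and 27.8% for Nfkb1. The excess was 22.3% for Relb, 15.9% for Nfkb2, 11.0% for Rela and 5.65% for Bcl3, and 0.213% for Nfkbiz. For the 7 members that fell with CLA, this was the LPS+CLA library nearest to LPS. Without this library 9 of 10 members were called in LPS+CLA against LPS, with Tnfaip3 at -1.40, Nfkbie at -1.55 and Nfkb1 at -0.51.

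**Figure D3:**
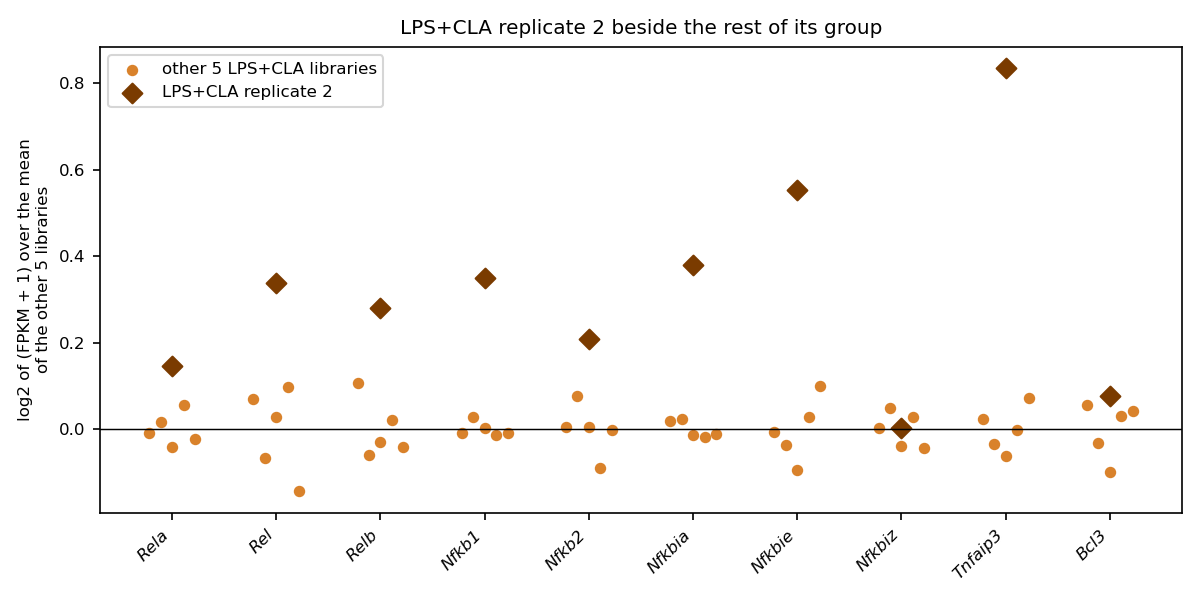
Log2 of FPKM + 1 in each LPS+CLA library (vertical axis) less the mean of the 5 libraries other than replicate 2, for the 10 members; the diamond is replicate 2 and the circles are the other 5. The diamond lies above all circles for 9 members, farthest for Tnfaip3 (0.83) and Nfkbie (0.55), and among them for Nfkbiz.

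Set directly against each other, the agents separated the members clearly. LPS+CLA was higher than LPS+Baf A1 for 3 members and lower for 6, so that 9 of 10 were called against 54.3% of all genes (35.4% higher, 19% lower), and 8 of 10 did not overlap against 39.5%. Of all calls 65.1% were higher, and 50.6%, 54.5% and 48.6% with median-of-ratios, quantile and myeloid-marker scaling; the members' calls were 3 higher under each, with Bcl3 at 0.15 and 0.16 under the first and the last. Nfkbiz was 1.93 times as high with CLA (log2 difference 0.93, SE 0.039, adjusted p = 1.45e-14), and Rel (0.35) and Bcl3 (0.23) were also higher. Nfkbie was lower, at -1.28 (SE 0.091, adjusted p = 8.08e-11), and Tnfaip3 (-0.73), Nfkb2 (-0.55), Relb (-0.46), Nfkb1 (-0.45) and Rela (-0.28) were lower too, with adjusted p-values of at most 7.3e-06. Tnfaip3 overlapped only through LPS+CLA replicate 2, at 59.4 FPKM against a lowest LPS+Baf A1 value of 58.3. Nfkbia differed by -0.10 (SE 0.060, adjusted p = 0.159) and was not called, but without LPS+CLA replicate 2 it was (-0.16, adjusted p = 0.00185).

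LPS+siAtg5 against LPS+dNC is the comparison that the design gives for knockdown of Atg5. Tnfaip3, Nfkbie, Nfkb2 and Nfkbia were far lower in LPS+siAtg5, Rela, Bcl3, Relb and Rel were lower by less, no member was higher, and Nfkb1 and Nfkbiz did not pass the test. Thus 0 of 10 members were higher and 8 were lower, against 59.6% and 21.6% of all genes (81.2% called in all), and 8 of 10 did not overlap against 77% of all genes. The median change of the members was -0.71 while that of all genes was 0.34, a shift that was 0.077 with median-of-ratios scaling and -0.015 with quantile normalization. Of all calls 73.4% were higher, and 55.1% and 49.1% under those scalings; the members' calls were 0 higher under both, with 10 and 8 lower. With libraries scaled to 10 markers of the myeloid lineage, 9 members were lower and none was higher. Under that scaling 78.3% of all genes were called, 66.9% of the calls were higher, and the median of all genes was 0.24. The markers of astrocytes and of other brain cells that were higher in LPS+siAtg5, and the S100a8, Lyz1, Cx3cr1 and Rps6 levels that set LPS+dNC apart, move with every value of this comparison, and their part in it was not tested.

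The largest difference was in Tnfaip3. It was at 172, 187 and 197 FPKM in the 3 LPS+dNC libraries and at 36.5, 34.9, 37.7, 35.4 and 32.98 in the 5 LPS+siAtg5 libraries, and the LPS libraries lay between these groups at 82.6 to 93.7. From LPS+dNC to LPS+siAtg5 the mean level fell by 80.9% (log2 difference -2.35, SE 0.13, adjusted p = 2.78e-13). Nfkbie was at 62.2, 52.4 and 43.7 FPKM in LPS+dNC and at 14.6, 15.2, 14.8, 14.3 and 16.95 in LPS+siAtg5, a difference of -1.72 (SE 0.11, adjusted p = 1.78e-12). Its LPS+dNC libraries were spread widely, with an SD of 17.5% of their mean, but the lowest of them still exceeded the highest LPS+siAtg5 library by more than the whole range of either group. Nfkbia was at 469, 428 and 399 FPKM in LPS+dNC and 170.3, 169, 169.8, 167 and 177 in LPS+siAtg5 (log2 difference -1.33, SE 0.072, adjusted p = 1.13e-13). The LPS+siAtg5 libraries were the most alike of any group in Nfkbia, with an SD of 2.31% of their mean.

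Among the subunits Nfkb2 stood out, at 93.7, 105 and 85.9 FPKM in LPS+dNC and 34.95, 35.2, 36.03, 35.4 and 37.9 in LPS+siAtg5 (log2 difference -1.37, SE 0.061, adjusted p = 3.15e-15). Nfkb1, its sister precursor, was at 52.9, 65.8 and 62.2 FPKM in LPS+dNC and 65.1, 62.00, 64.9, 62.6 and 67.4 in LPS+siAtg5. The ranges of Nfkb1 overlapped, and the difference of 0.10 (adjusted p = 0.196) turned to -0.20 with median-of-ratios scaling (adjusted p = 0.0187) and to -0.0038 with scaling to myeloid markers. Rela was at 53.4, 58.00 and 50.9 FPKM in LPS+dNC and 32.1, 32.1, 31.04, 30.4 and 32.1 in LPS+siAtg5, without overlap and with a difference of -0.76 (SE 0.051, adjusted p = 4.53e-12). Relb was at 32.4, 35.7 and 31.1 FPKM against 22.5, 25.2, 24.3, 23.8 and 27.9 (-0.40, SE 0.077, adjusted p = 5.01e-05). Rel was at 11.3, 12.2 and 13.01 FPKM against 10.8, 9.58, 11.2, 9.98 and 9.75, groups that met closely without overlap, and its difference of -0.23 (SE 0.084, adjusted p = 0.0172) was lost without LPS+dNC replicate 3 (-0.18, adjusted p = 0.0903). With median-of-ratios scaling and quantile normalization Rel was lower by more, at -0.51 (adjusted p = 1.99e-05) and -0.56 (adjusted p = 4.75e-06), and Relb was at -0.70 under the first.

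Of the nuclear cofactors, Bcl3 was lower and Nfkbiz did not pass the test. Bcl3 was at 54.7, 60.1 and 53.5 FPKM in LPS+dNC and 36.6, 37.6, 36.1, 33.3 and 32.2 in LPS+siAtg5, without overlap (-0.66, SE 0.058, adjusted p = 5.18e-10). Nfkbiz was at 97.1, 109.7 and 106 FPKM and 105, 90.7, 103, 96.5 and 96.7, with overlap, and its difference of -0.09 (SE 0.047, adjusted p = 0.097) was not called. It was called lower with median-of-ratios scaling (-0.39), with myeloid-marker scaling (-0.19) and without LPS+dNC replicate 1 (-0.14, adjusted p = 0.0164) or LPS+siAtg5 replicate 1 (-0.11, adjusted p = 0.0385).

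Because LPS+dNC differed from LPS, the same LPS+siAtg5 libraries were also set against LPS, which shares its 3 libraries with other comparisons. Against LPS, 8 members were lower and 2 higher, 10 of 10 being called against 76.8% of all genes (61.2% higher, 15.6% lower), and none overlapped, against 70.7% of all genes without overlap. Tnfaip3 (-1.29, SE 0.13, adjusted p = 1.02e-08) and Nfkbie (-1.28, SE 0.11, adjusted p = 4.54e-10) were again the lowest, followed by Nfkb2 (-0.86), Nfkb1 (-0.71), Rela (-0.64), Rel (-0.58) and Relb (-0.55). Nfkbia was lower too, at -0.39 (SE 0.072, adjusted p = 4.68e-05). Nfkbiz (0.18, adjusted p = 0.00184) and Bcl3 (0.30, adjusted p = 6.68e-05) were higher, but the median of all genes was 0.31, so relative to it Nfkbiz lay at -0.14 and Bcl3 at -0.01. With median-of-ratios scaling they were at -0.15 (adjusted p = 0.00687) and -0.02 (adjusted p = 0.787). Of all calls 79.7% were higher, and 52.7% and 47.4% with median-of-ratios scaling and quantile normalization, under which 0 and 2 members were higher and the median of all genes was 0.025 and -0.027. With median-of-ratios scaling Rela was at -0.96, Rel at -0.89, Relb at -0.88 and Nfkbia at -0.72, and with quantile normalization Rel was at -0.88 and Bcl3 at 0.14 (adjusted p = 0.0383). The astrocyte markers were higher in this comparison too, at 9.25 to 14.9 FPKM summed in LPS, and their part in it was not tested.

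LPS+dNC against LPS compares the groups that serve as controls, and the feedback inhibitors differed strongly between them. Tnfaip3 was 2.11 times, Bcl3 1.98 times and Nfkbia 1.93 times as high in LPS+dNC, while Nfkb1 fell by 43.2% in mean level. In all, 6 members were higher and 2 lower, 8 of 10 being called against 57.2% of all genes (29% higher, 28.1% lower), and 8 of 10 did not overlap against 53.6%. The differences were 1.07 (SE 0.15, adjusted p = 1.89e-06) for Tnfaip3, 0.95 (SE 0.081, adjusted p = 1.07e-09) for Nfkbia and 0.96 (SE 0.065, adjusted p = 2.13e-11) for Bcl3. Nfkb2 (0.51), Nfkbie (0.44) and Nfkbiz (0.26) were also higher, and Nfkb1 (-0.81, SE 0.078, adjusted p = 7.62e-09) and Rel (-0.36, adjusted p = 0.00252) were lower. The share of all calls that were higher was 50.8%, and 61.1% with myeloid-marker scaling, under which 7 members were higher. Rela (0.12, SE 0.057, adjusted p = 0.0689) and Relb (-0.15, SE 0.086, adjusted p = 0.142) were not called, though Rela was without LPS replicate 3 (0.17, adjusted p = 0.0155) or LPS+dNC replicate 3 (0.17, adjusted p = 0.0258). Thus for Tnfaip3, Nfkbia, Nfkbie and Nfkb2, LPS+siAtg5 was below LPS and LPS+dNC above it, and both differences enter the comparison of LPS+siAtg5 with LPS+dNC. For Nfkb1 both groups were below LPS. For Bcl3 both were above LPS in FPKM, LPS+dNC by more. S100a8 (129 to 632 FPKM against 5.61 to 12.4 in LPS), Lyz1, Cx3cr1, Csf1r and Rps6 moved with this comparison as given above, and their part in it was not tested.

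The difference between the Baf A1 effect (over LPS) and the siAtg5 effect (over LPS+dNC) was itself tested; Baf A1 acts on the last step of autophagy and Atg5 on the formation of the autophagosome. It was called for 9 of 10 members against 72.7% of all genes, with 7 members higher and 2 lower against 20.4% and 52.3%. Tnfaip3 differed most, with -0.53 under Baf A1 and -2.35 under siAtg5 (difference 1.83, SE 0.19, adjusted p = 1.37e-08). For Nfkb2 the effects had opposite signs, 0.26 and -1.37 (difference 1.63, SE 0.086, adjusted p = 2.4e-13), as they had for Bcl3, 0.27 and -0.66 (difference 0.93, SE 0.082, adjusted p = 1.3e-09). Set against LPS instead, LPS+siAtg5 was at -0.86 for Nfkb2 but at 0.30 for Bcl3, the same sign as with Baf A1. With median-of-ratios scaling this Bcl3 value was -0.02. LPS+dNC itself was at 0.96 against LPS for Bcl3. Rel (-0.74 and -0.23) and Nfkbiz (-0.57 and -0.09) had the lower value under Baf A1, with differences of -0.52 and -0.49. These sizes moved with the scaling: Rel was at -0.30, -0.18 and -0.33 with median-of-ratios, quantile and myeloid-marker scaling, and was not called under the second (adjusted p = 0.209), while Nfkbiz was at -0.25, -0.56 and -0.31. Relb (0.28, adjusted p = 0.0274) was at 0.51, 0.41 and 0.46 under them, but lost its call without any 1 of 5 libraries (LPS replicate 1 or 2, LPS+Baf A1 replicate 2, LPS+dNC replicate 2, LPS+siAtg5 replicate 1), at 0.22 to 0.27 with adjusted p-values of 0.0513 to 0.0929. The share of all calls that were higher was 28.1%, and 43.1%, 51.1% and 41.1% with median-of-ratios, quantile and myeloid-marker scaling; 7 members were higher under each, and 2, 1 and 2 lower. The median of all genes was -0.30, and -0.092, 0.014 and -0.12 under those scalings. This difference holds LPS+dNC, and with it all that sets that group apart.

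Ratios between members within a library do not change when the whole library is multiplied by a single factor, but quantile normalization can change them. They are given as a description of the FPKM values, with no test. A different mix of cells can change them too. The part of the genes that set LPS+siAtg5 and LPS+dNC apart was not tested for these ratios. Nfkbia over Rela, the main inhibitor over the main activating subunit, was 4.51 ± 0.037 in LPS (SD, n = 3), 5.41 ± 0.160 in LPS+Baf A1 (n = 5), 6.16 ± 0.447 in LPS+CLA (n = 6), 8.01 ± 0.712 in LPS+dNC (n = 3) and 5.41 ± 0.117 in LPS+siAtg5 (n = 5). Every library of the other groups was above all 3 LPS libraries. Nfkbie over Nfkbia was 0.171 ± 0.0044 in LPS, 0.140 ± 0.0049 in LPS+Baf A1, 0.0593 ± 0.0048 in LPS+CLA, 0.121 ± 0.012 in LPS+dNC and 0.0888 ± 0.0043 in LPS+siAtg5. These 5 ranges did not overlap one another, and IkB-epsilon mRNA was thus lowest beside IkB-alpha mRNA in LPS+CLA.

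Tnfaip3 over Nfkbia followed a different order. It was 0.396 ± 0.046 in LPS and 0.433 ± 0.064 in LPS+dNC, which overlapped, and 0.253 ± 0.0098 in LPS+Baf A1, 0.208 ± 0.013 in LPS+siAtg5 and 0.163 ± 0.025 in LPS+CLA, all below them. Nfkb2 over Nfkb1, the precursor genes of the non-canonical and the classical pathway, was 1.58 ± 0.195 in LPS+dNC and between 0.557 and 0.744 on average in the other groups. The ratio of IkB-zeta mRNA to IkB-epsilon mRNA, Nfkbiz over Nfkbie, was 8.53 ± 1.34 in LPS+CLA and 6.52 ± 0.650 in LPS+siAtg5, against 2.27 ± 0.161 in LPS, 2.03 ± 0.439 in LPS+dNC and 1.73 ± 0.088 in LPS+Baf A1. The lowest library of the first pair of groups was at 5.71, and the highest of the others at 2.44.

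**Figure D4:**
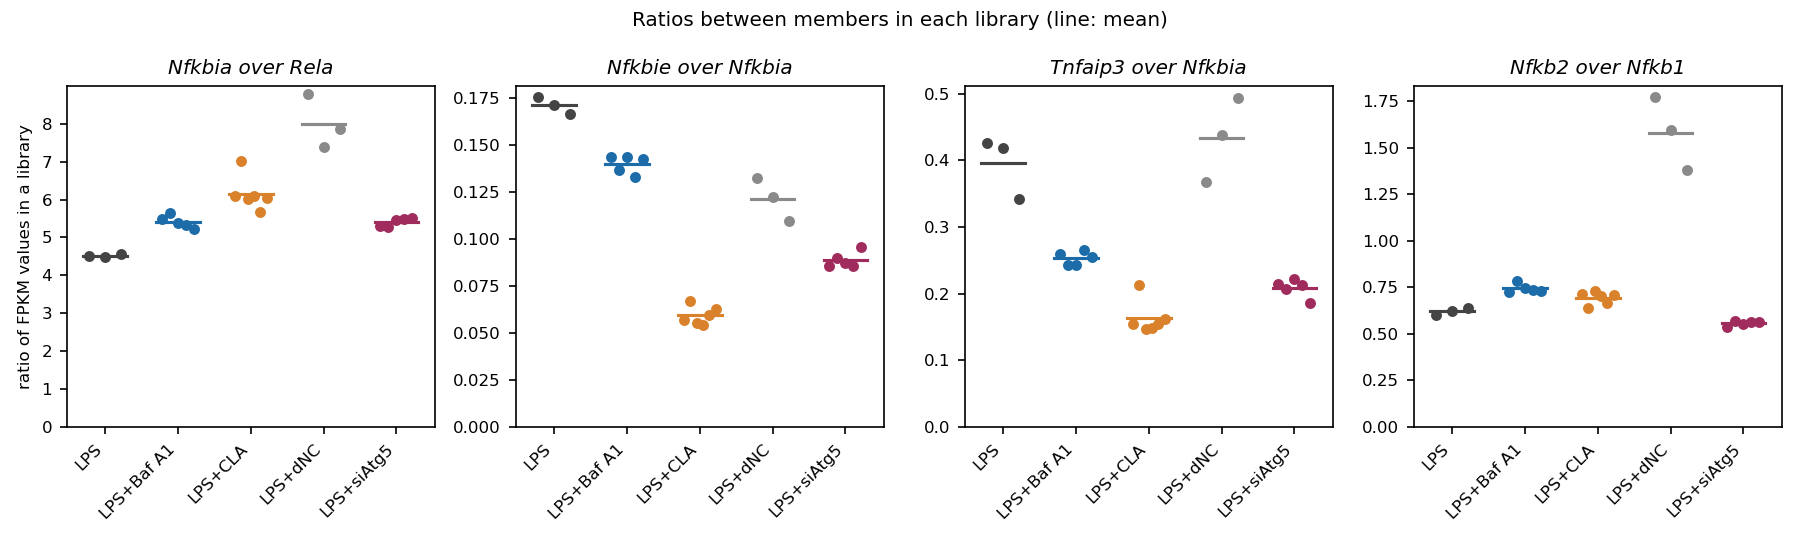
Ratio of FPKM values of member pairs within each library (vertical axes, linear from 0) by group; each point is 1 library and the line is the group mean. Nfkbie over Nfkbia is highest in LPS and lowest in LPS+CLA (means of 0.171 and 0.0593), and Nfkb2 over Nfkb1 is set apart in LPS+dNC (mean of 1.58).

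In the order of group means, neighbours often could not be separated. Relb formed a high set (LPS, LPS+Baf A1, LPS+dNC, overlapping neighbours) and a low one (LPS+siAtg5 and LPS+CLA, which overlapped), and Nfkb1 a high set (LPS+Baf A1 and LPS), LPS+CLA in the middle, and a low set (LPS+siAtg5 and LPS+dNC, which overlapped). For Nfkb2 no neighbours overlapped, in the order LPS+dNC, LPS+Baf A1, LPS, LPS+CLA and LPS+siAtg5. For Nfkbie all groups were separate except LPS+siAtg5 and LPS+CLA, and for Nfkbiz LPS+CLA overlapped LPS+dNC and LPS+dNC overlapped LPS+siAtg5.

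Over the 22 libraries, Pearson correlations of log2(FPKM + 1) describe which members shared a pattern; libraries of a group share their treatment, so the points are not independent and no p is given. Rela was most like Nfkb2 (r = 0.92), Nfkbie like Rela (r = 0.92), Tnfaip3 like Nfkbie (r = 0.92) and Relb like Nfkbie (r = 0.91). Nfkbia was most like Tnfaip3 (r = 0.86) and Bcl3 like Nfkbia (r = 0.71), whereas Nfkb1 (with Relb, r = 0.58) and Rel and Nfkbiz (with each other, r = 0.49) had no close partner. Nfkbiz had negative correlations down to -0.69, with Nfkb1. Outside the members, the genes most alike were Ccrl2 for Nfkbie (r = 0.99), Nod2 for Tnfaip3 (r = 0.98), Ifitm3 for Nfkbia (r = 0.98), Nos2 for Nfkb2 (r = 0.97), Fcgr2b for Rela (r = 0.97) and Cdk14 for Nfkbiz (r = 0.97). For Bcl3 this was Cfl1 (r = 0.96), for Rel Msl2 (r = 0.96), for Nfkb1 Arl5c (r = 0.95) and for Relb Cd40 (r = 0.93). Nos2, for example, went from 16.6 FPKM in LPS+siAtg5 to 538 in LPS+dNC.

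Other genes of the pathway were described by lists, chosen by function with earlier results of these data known, and their counts can be read against the shares of all genes given above. Upstream of the IkB kinase, the 13 receptor and adaptor genes were split: 5 rose and 4 fell with Baf A1, 5 rose and 4 fell with CLA, and 4 were higher and 6 lower in LPS+siAtg5 than in LPS+dNC. Cd14, the LPS co-receptor, rose with Baf A1 (1.45) and CLA (0.75), and Tlr4, the receptor itself, fell with both (-0.67 and -0.70). With Baf A1, Irak2 (0.31) and Ticam1 (0.29) also rose, and Tab2 (-0.55) and Myd88 (-0.48) fell. With CLA, Tab1 (0.30) and Irak3 (0.23) rose and Myd88 (-0.36) and Ly96 (-0.48) fell. In LPS+siAtg5, Irak1 (0.92), Tlr4 (0.90) and Map3k7 (0.31) were higher and Ly96 (-1.12), Irak2 (-0.83) and Myd88 (-0.30) lower than in LPS+dNC. Tlr4 was at 7.37 FPKM in LPS+dNC, 14.6 in LPS+siAtg5 and 30.1 in LPS. Against LPS it was thus lower in LPS+siAtg5 (-0.99), while the other genes of that sentence kept their direction.

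A list of 10 genes held the IkB kinase complex, the non-canonical arm and the related kinase genes Tbk1 and Ikbke. Of these 10 genes, 2 rose and 7 fell with Baf A1, 2 rose and 6 fell with CLA, and 2 were higher and 5 lower in LPS+siAtg5 than in LPS+dNC. Tbk1 and Ikbke, whose proteins are not subunits of that complex, were lower in all of these comparisons. They were at -0.60 and -0.67 with Baf A1, -0.69 and -0.83 with CLA, and -0.91 and -0.94 in LPS+siAtg5. Map3k14, which encodes the kinase that starts non-canonical signalling, rose with Baf A1 (0.35) and CLA (0.46). Birc2, a ubiquitin ligase that restrains that kinase, fell with both (-0.64 and -0.43). Ikbkb rose with Baf A1 (0.24) and Ikbkg with CLA (0.38). In LPS+siAtg5, Ikbkg (1.49) and Traf3 (0.99) were higher and Birc3 (-0.48) lower.

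Other inhibitors and ubiquitin editors were 14 genes, of which 4 rose and 5 fell with Baf A1, 5 rose and 3 fell with CLA, and 6 were higher and 7 lower in LPS+siAtg5 than in LPS+dNC. Nfkbid, another nuclear IkB gene, was lower in each (-0.65, -0.54 and -1.16), as was Tax1bp1, an adaptor that works with the Tnfaip3 protein (-0.55, -0.30 and -0.84). N4bp1 fell with both agents (-0.55 and -0.47) and Zc3h12a rose with both (0.25 and 0.35). Tnip1 (0.39) and Otud7b (0.62) rose with Baf A1, and Tnip3 (0.81) and Otulin (0.41) with CLA. In LPS+siAtg5, Otulin (0.68), Cyld (0.41) and Nkrf (0.31) were higher and Tnip2 (-0.74) lower.

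Common target genes of NF-kB were more often called higher than lower with Baf A1, and more often lower in LPS+siAtg5 than in LPS+dNC. Of 17 tested (Ccl20 was too low), 9 rose and 4 fell with Baf A1, against 32.7% and 25.1% of all genes. With CLA 3 rose and 6 fell, against 40.4% and 22.6%. In LPS+siAtg5 2 were higher and 14 lower than in LPS+dNC, against 59.6% and 21.6%. The median changes were 0.33, -0.16 and -1.17. Set against LPS instead, 2 were higher and 12 lower in LPS+siAtg5, against 61.2% and 15.6% of all genes, with a median of -0.50. With Baf A1, the cytokine genes Il1b (1.87) and Il6 (1.17) and the chemokine gene Cxcl1 (2.48) rose, and Gadd45b (-0.96), the adhesion molecule gene Vcam1 (-0.76) and the co-stimulatory receptor gene Cd40 (-0.22) fell. With CLA, Il1b (1.51), Cxcl1 (0.99) and Bcl2a1d, a survival gene (0.59), rose, and Cd40 (-1.55), the protease gene Plau (-0.57) and Icam1 (-0.47) fell. In LPS+siAtg5, the chemokine gene Ccl5 (-1.85), Gadd45b (-1.45) and the mitochondrial superoxide dismutase gene Sod2 (-1.17) were lower, and Vcam1 (3.27) and Plau (0.88) higher. Astrocyte, fibroblast, mural and endothelial markers were higher in LPS+siAtg5 too, and their part in these values was not tested. Under Baf A1 the targets' median was thus above that of all genes (0.039) and the members' median (-0.14) below it.

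**Figure D5:**
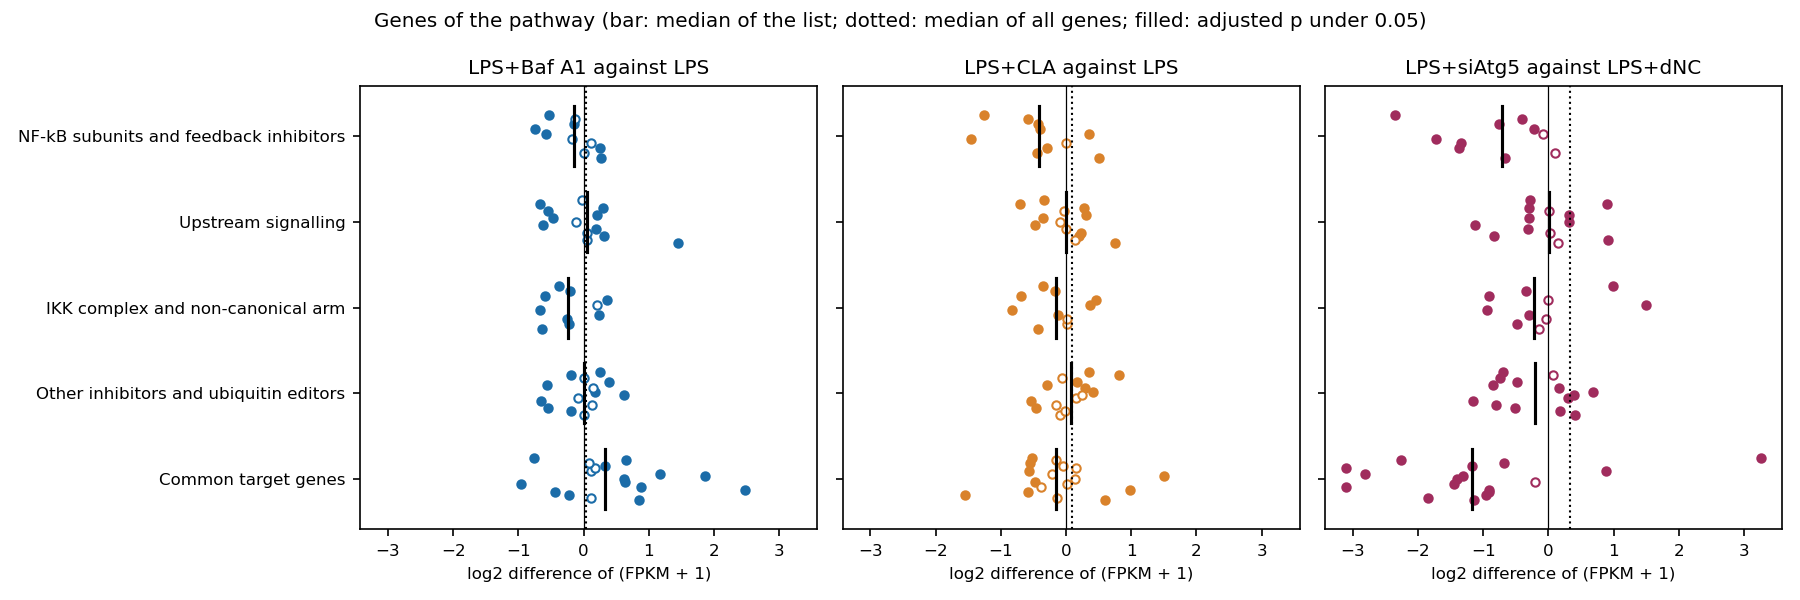
Log2 difference of FPKM + 1 (horizontal axis) for the members and for 4 lists of other pathway genes in 3 comparisons; each point is 1 gene, filled where its adjusted p was under 0.05, the bar is the list's median and the dotted line the median of all genes tested. The common target genes lie to the right of the members with LPS+Baf A1 (medians of 0.33 and -0.14) and to their left in LPS+siAtg5 against LPS+dNC (-1.17 and -0.71).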

How the data were processed

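RNA of 22 libraries in 5 groups, assigned by their titles, was measured by sequencing of polyadenylated RNA. The deposited values are FPKM per gene symbol, per the file headers of 19 columns. For LPS+dNC the 3 headers give none, and FPKM was inferred from the size of the values. The submitters' processing notes list StringTie 1.3.1, HISAT2, Bowtie2 2.2.8, fastp 0.18.0 and CASAVA 1.7. Genome build and annotation: not given in the sources used here. Depth is unknown and no count test was run.

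Values were analysed as log2(FPKM + 1), which understates changes of low genes, for the 11070 of 15725 genes that reached 1 FPKM in 3 or more libraries. One model with 5 group means (17 residual degrees of freedom) was fitted with limma 3.58.1 in R 4.3.3 (trend and robust options), with 7 contrasts and Benjamini-Hochberg correction across all tested genes; calls required an adjusted p under 0.05. Before use the fit was checked on simulated data in which only a small share of the genes changed. In each comparison here most genes were called, a setting which that check does not cover. The members and lists were chosen with earlier results of these data known. All members are named, and of each pathway list up to 3 called genes per direction with the smallest adjusted p in each main comparison. For each member, the most alike member and other gene (mean of at least 5 FPKM) are named. Alternatives were other pseudocounts, filters, scalings and weights, a replicate block, fewer groups and libraries left out.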

Additional observations from a re-analysis of the deposited data

Results flagged for a closer look

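A single library lay far from the rest of its group for 4 members, in each case LPS+CLA replicate 2 as the highest of 6: Nfkb1 at 95.05 FPKM with the next library at 75.88, Nfkbia at 279.32 with the next at 218.04, Nfkbie at 18.65 with the next at 13.37, and Tnfaip3 at 59.42 with the next at 34.60. The gap to the next library took up 0.744 to 0.910 of the group's range, above Dixon's limit of 0.625 for 6 libraries. In all 30 such tests were made, over 10 members and the 3 groups large enough, and chance flags about 1 in 20.

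The Baf A1 effect (LPS+Baf A1 over LPS) and the siAtg5 effect (LPS+siAtg5 over LPS+dNC) differed for 9 members by the test of the difference in limma. In the same test 72.7% of all genes were called. The siAtg5 effect holds LPS+dNC, in which 6 members were called higher and 2 lower than in LPS. Among these, Tnfaip3 was at 1.07, Bcl3 at 0.96, Nfkbia at 0.95 and Nfkb1 at -0.81. The part of what sets LPS+dNC apart was not tested. The Baf A1 effect minus the siAtg5 effect on the log2 scale was 1.83 for Tnfaip3, 1.63 for Nfkb2, 1.54 for Nfkbie, 1.44 for Nfkbia, 0.93 for Bcl3, 0.61 for Rela and 0.28 for Relb. It was -0.52 for Rel and -0.49 for Nfkbiz. The adjusted p-values ranged from 2.4e-13 (Nfkb2) to 0.0274 (Relb), and 0.378 for Nfkb1 (-0.10), the member that was not called. The call of Relb was lost without any 1 of 5 libraries (adjusted p = 0.0513 to 0.0929), and that of Rel with quantile normalization (-0.18, adjusted p = 0.209).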

How the results depend on the processing

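Of 1430 values of single members under the alternatives, 1377 kept their direction and their side of the threshold, and no total of members called in a comparison moved by more than 1.5 times. By direction, members called higher in LPS+siAtg5 against LPS went from 2 to 0 with median-of-ratios scaling, and members called lower in the difference of effects from 2 to 1 with quantile normalization. Values that changed sign were those of Nfkb1, Nfkbia, Nfkbiz and Bcl3. For Nfkb1 with Baf A1 (0.00) they were -0.064 with median-of-ratios scaling, -0.053 with quantile normalization, -0.022 with array weights, -0.013 without the 3 libraries that lie apart, and, leaving out single libraries, from -0.013 to 0.027. For Nfkb1 in LPS+siAtg5 against LPS+dNC (0.10) they were -0.20 (median-of-ratios), -0.0038 (myeloid markers) and -0.00039 (array weights), and for the difference of effects (-0.10) 0.14 and 0.084 under the first pair of these. For Nfkbia with CLA (0.01) they were -0.14 (median-of-ratios), -0.081 (quantile), -0.018 (array weights), -0.0031 (without the 3 libraries) and from -0.057 to 0.060 with single libraries left out. In LPS+siAtg5 against LPS, median-of-ratios scaling gave -0.15 for Nfkbiz and -0.021 for Bcl3. The causes were not tested. Rela with Baf A1 was not called with myeloid-marker scaling (-0.07) or without the 3 libraries (-0.10), nor was Rel in the difference of effects with quantile normalization (-0.18) or Relb there without LPS replicate 1 or 2, LPS+Baf A1 replicate 2, LPS+dNC replicate 2 or LPS+siAtg5 replicate 1 (0.22 to 0.27).

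Libraries with the same replicate number showed no strong shared deviation (correlations of -0.13 to 0.16). With so few libraries this cannot settle whether the numbers mark a pairing. With the replicate number as a block, no member's call changed. As without it, 6, 8 and 9 members were called with Baf A1, with siAtg5 against LPS+dNC and with CLA. Depth is unknown, groups of 3 limit the precision of LPS and LPS+dNC, and no culture without LPS shows the members at rest.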
